A study of Mus musculus with 62 samples.

Results

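A group of 240 genes stood out in mouse germ cells of the late fetal testis by being abundant there and scarcer before and after. They were chosen by level from 35914 nuclear genes. A gene was taken where its mean over the 6 libraries of E16.5, E17.5 and E18.5 was at least 20 RPM (read counts scaled to the same total of nuclear reads in every library) and at least 8 times both its mean at E14.5 (2 libraries) and its mean at P5 and P7 (4 libraries). Piwil4, Spocd1, Dnmt3l and names starting with Hox were left out, and 1 gene that met the thresholds was left out by name. Of 7669 genes with a late fetal mean of at least 20 RPM, the 240 members are those with both contrasts. The levels at E14.5, at E16.5 to E18.5 and at P5 and P7 chose the members, so they are given below as a description, and tests were made only between groups that the choice did not use.

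Prospermatogonia are male germ cells that have entered the fetal testis, stop dividing and wait until shortly after birth, when they resume division and become spermatogonia. During the arrest they are known to rebuild DNA methylation across the genome and to make piRNAs, small RNAs that guide the silencing of transposons. Many of the genes described here are better known from other cells, such as hepatocytes, neurons, muscle fibres, ciliated epithelium or cartilage.

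The series held 62 libraries in 31 groups of 2. In vivo germ cells carried Ddx4-RFPTg/0, a reporter of a germ cell gene, were sorted by flow cytometry, and were labelled prospermatogonia on each day from E14.5 to E18.5 and spermatogonia after birth, on P0, P1, P3, P5 and P7. The culture groups carried Prdm1-mVenusTg/0, Dppa3-ECFPTg/0 and mvh(Ddx4)-RFPTg/0 on a cross of B6C3(Cg) with C57BL/6. They were PGC-like cells (d4 and d4c5), then cells from reconstituted testes, labelled prospermatogonia-like at m0 to m7 (m0, m3, m5, m7) and spermatogonia-like at m10 to m14 (m10, m12, m14), in which the PGC-like cells were aggregated with somatic cells of E12.5 ICR fetal testes. The labels give no unit for the m numbers. A further 12 groups were cultured lines, GSC1 and 11 GSC-like lines, with Acr-EGFPTg/0 and Actin-EGFPTg/0 on 129/SvJcl x C57BL/6. RNA was read from the 3′ ends of transcripts, and the libraries held 1404261 to 4485280 counted reads of nuclear genes. The labels do not say whether the 2 libraries of a group came from separate animals or cultures. Every p-value rests on the spread between libraries of the same group, estimated together over all 31 groups, and this spread may be technical.

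A list of 5 germ cell genes (Ddx4, Dazl, Mael, Tdrd1 and Dnd1) had a summed group mean of 2675 to 4015 RPM in vivo, of 95.02 RPM at d4, 1455 RPM at m3, 2756 RPM at m5 and 3179 RPM at m7. The defining germ cell markers were thus present in vivo and from m3 onwards and were low in the PGC-like groups. More genes were detected where the members were high. The number of nuclear genes at 5 RPM or more was 10255 and 10354 in the E14.5 libraries, 12789 to 13727 in the late fetal libraries and 10249 to 10515 at P5 and P7. In culture it was 10781 and 11295 at m5, 12302 and 12410 at m7, and 11902 and 12368 at m10. The part of this wider detection in the members' levels was not tested.

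Summed over the 240 members, the level in the 2 libraries was 645 and 710 RPM at E14.5, 2928 and 2919 RPM at E15.5, 8856 and 9140 RPM at E16.5, 11050 and 10988 RPM at E17.5, and 11552 and 11474 RPM at E18.5. It was 7468 and 7820 RPM at P0, 4928 and 5074 RPM at P1, 1238 and 801 RPM at P3, 438 and 389 RPM at P5, and 506 and 562 RPM at P7. Thus E15.5, P0, P1 and P3, which the choice did not use, lay between the high and the low days, in the order of age. The median member was at 2.18 RPM at E14.5, 9.21 RPM at E15.5, 33.6 RPM at E17.5, 23.6 RPM at P0, 13.2 RPM at P1 and 2.49 RPM at P3. Of the 240 members, 184 reached 5 RPM at E15.5, 236 at P0, 212 at P1 and 62 at P3.

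**Figure D1:**
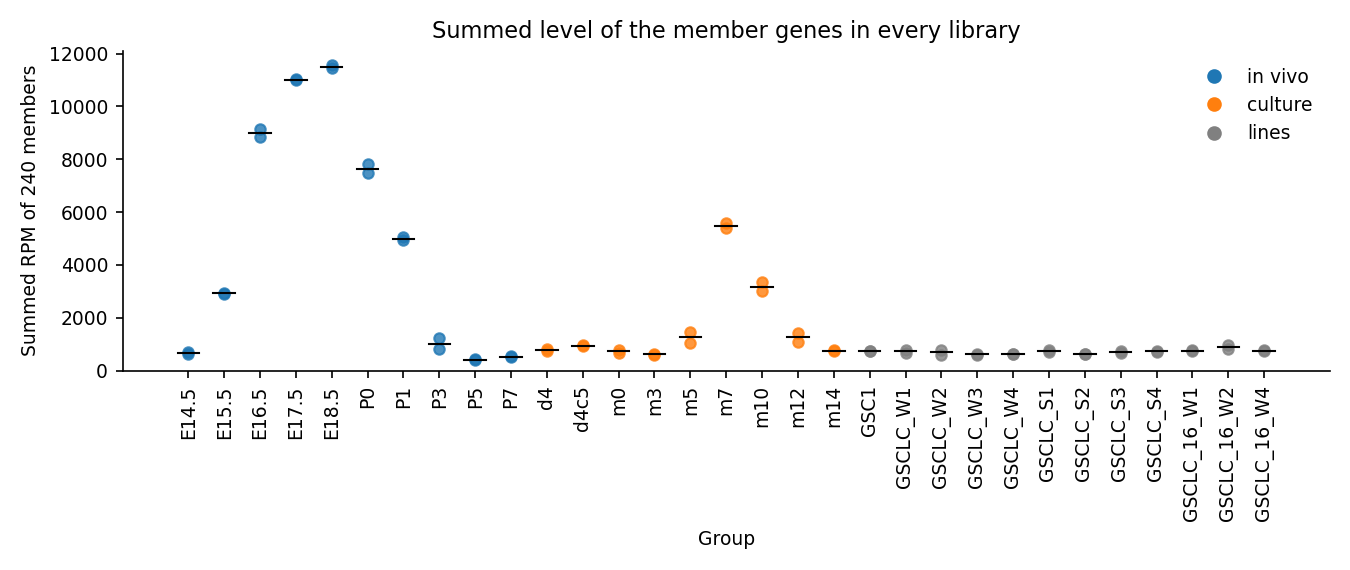
Summed RPM of the 240 members (y axis) in each of the 62 libraries (points), with the mean of the 2 libraries of a group (black lines), for in vivo groups (blue), culture groups (orange) and lines (grey). The sum peaks at E18.5 in vivo (11474 and 11552 RPM) and at m7 in culture (5387 and 5587 RPM), and every line library lies at 962 RPM or lower.

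In culture the sum was low through the PGC-like and the first reconstituted groups, with 733 to 965 RPM over d4 and d4c5, 675 and 775 RPM at m0, and 604 and 627 RPM at m3. It was 1058 and 1452 RPM at m5, 5587 and 5387 RPM at m7, 2998 and 3357 RPM at m10, 1432 and 1083 RPM at m12, and 770 and 736 RPM at m14. The libraries of m7 were the highest of all culture libraries, those of m10 came next, and neither overlapped with any other culture group. The culture groups took no part in the choice of members. In the 12 line groups the sum was 594 to 962 RPM in every library, close to the 604 to 965 RPM of the d4 to m3 libraries.

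Of the members, 202 (84.2%) had their highest culture mean at m7 and 26 (10.8%) at m10, while 4 peaked at d4, 7 at d4c5, 1 at m0 and none at m3, m5, m12 or m14. Among all 16008 genes tested, 27.4% (4387) had their highest culture mean at m7 and 2638 at m10. In vivo 105 members peaked at E18.5, 93 at E17.5, 23 at E16.5, 11 at P0 and 8 at P1. Within the late fetal days 95 members increased in mean from E16.5 through E17.5 to E18.5, and 21 decreased.

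**Figure D2:**
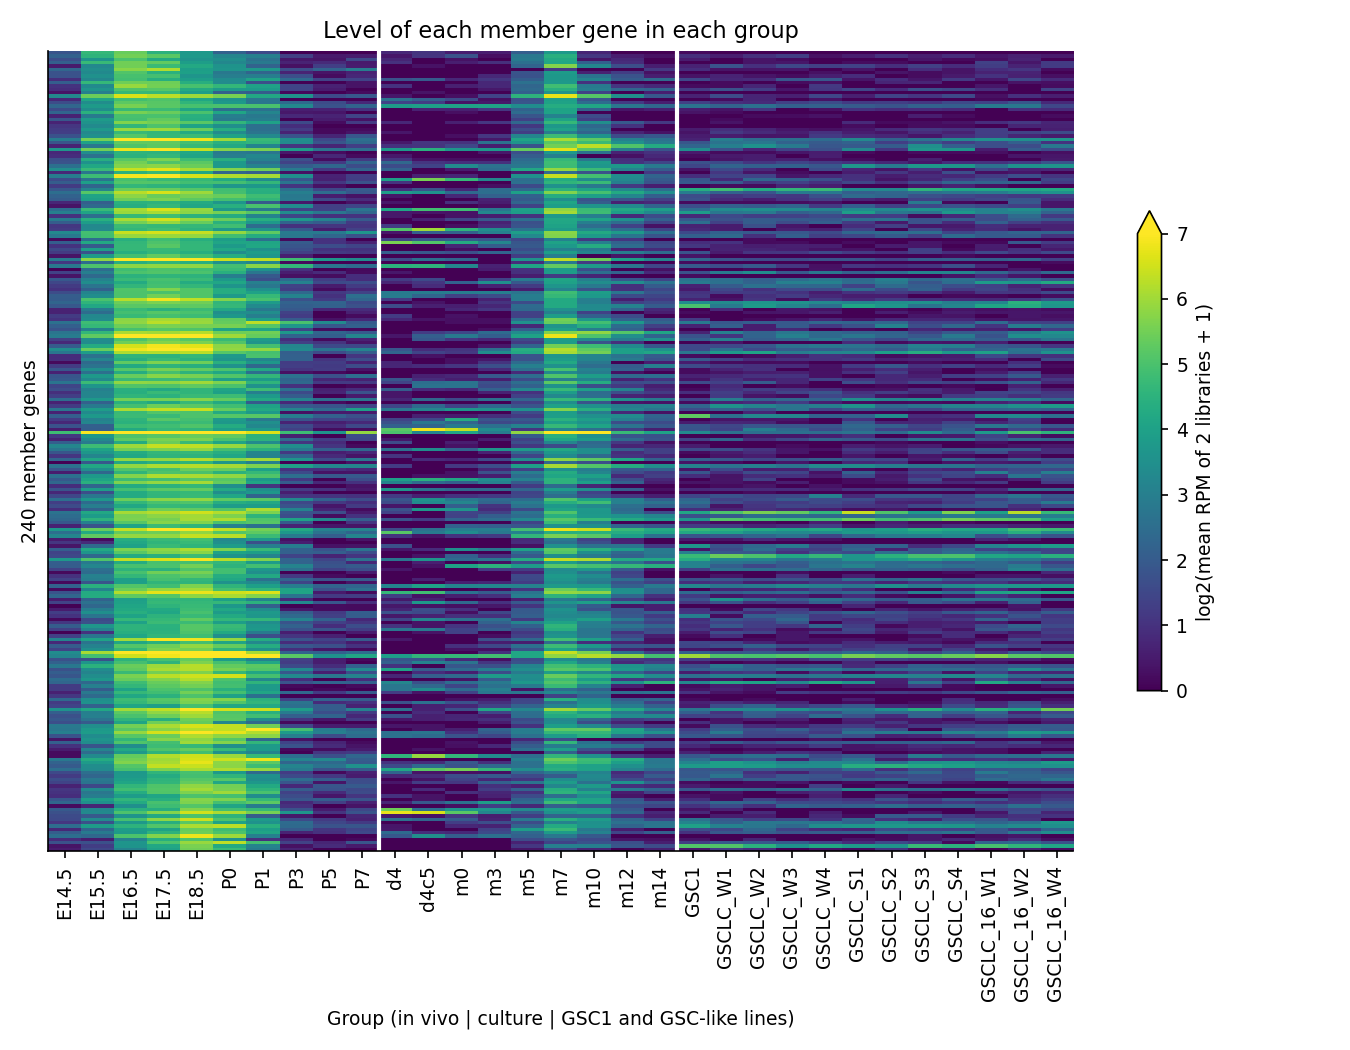
Level of each of the 240 members (rows, ordered by how late in E16.5 to E18.5 their level is centred) in each of the 31 groups (columns), as log2(mean RPM + 1) on a colour scale that ends at 7. The bright columns are E16.5 to P1 and m7 to m10; the lines and d4 to m3 are dark for most members, with a few bright rows.

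The 12 members with the highest late fetal means were Grb10, C3, Ccdc113, Fam183b, Thbs4, Spaca9, Myo1a, Ripor1, Gsn, Slc39a4, Fam217a and Foxa1. Grb10, an imprinted adaptor that dampens insulin and growth factor receptor signalling, was by far the most abundant. It had 26.9 and 27.7 RPM at E14.5, 358 and 386 RPM at E16.5, 461 and 486 RPM at E17.5, 461 and 477 RPM at E18.5, 10.77 and 11.98 RPM at P5, and 47.6 and 67.7 RPM at P7. Its P7 libraries were thus above those of both P5 and E14.5, and its P7 mean was the highest of all members. In culture Grb10 had 4.27 and 9.25 RPM at m3, 37.5 and 74.1 RPM at m5, 238 and 243 RPM at m7, and 113 and 173 RPM at m10. The m7 libraries were above all other culture libraries of this gene. C3, the central complement protein made mainly by liver, had 9.64 and 9.73 RPM at E14.5, 240 and 248 RPM at E18.5, and 1.66 and 5.32 RPM at P5. Its culture values were 0 in all libraries of d4, d4c5 and m0, 13.1 and 20.6 RPM at m5, 77.5 and 86.4 RPM at m7, 45.3 and 48.3 RPM at m10, and 0.52 and 2.48 RPM at m14. Foxa1, a pioneer transcription factor of endoderm-derived organs, had 5.17 and 10.8 RPM at E14.5, 111 and 131 RPM at E17.5, and 25.4 and 31.7 RPM at m7. Ripor1 followed another course. It stayed at 153 RPM at P0 and 167 RPM at P1 on average, and in culture its mean was higher at m10 (74.9 RPM) than at m7 (55.4 RPM).

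The promoters of 4 of these genes are shown, because they are the members with the highest late fetal means for which a single promoter was listed, and they span a gene of liver, a pair of ciliary genes and a matrix gene. Each sequence runs from 250 bases before to 50 bases after the start listed for the promoter. It is written 5′ to 3′ on the gene's strand, from RefSeq on GRCm38.p6. In Ccdc113 and Fam183b the listed start lies inside the gene as located in RefSeq. On its own strand Ccdc113 begins at 95534060 and Fam183b at 58802221, so the whole Fam183b sequence lies within its gene. C3 lies at chr17:57228087-57228386 on the minus strand, Ccdc113 at chr8:95533850-95534149 on the plus strand, Fam183b at chr11:58801911-58802210 on the minus strand and Thbs4 at chr13:92794769-92795068 on the minus strand. Capitals mark matches to the motifs searched on both strands: the E-box CACGTG, the GC box GGGCGG, the TATA box TATAAA, the CCAAT box CCAAT and the CRE core TGACG.
C3: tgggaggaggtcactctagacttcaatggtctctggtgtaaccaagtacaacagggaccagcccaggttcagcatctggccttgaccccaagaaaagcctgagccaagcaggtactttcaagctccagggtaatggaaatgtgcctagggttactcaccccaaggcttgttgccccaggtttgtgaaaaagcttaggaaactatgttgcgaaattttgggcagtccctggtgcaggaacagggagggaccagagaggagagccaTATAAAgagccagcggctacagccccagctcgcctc
Ccdc113: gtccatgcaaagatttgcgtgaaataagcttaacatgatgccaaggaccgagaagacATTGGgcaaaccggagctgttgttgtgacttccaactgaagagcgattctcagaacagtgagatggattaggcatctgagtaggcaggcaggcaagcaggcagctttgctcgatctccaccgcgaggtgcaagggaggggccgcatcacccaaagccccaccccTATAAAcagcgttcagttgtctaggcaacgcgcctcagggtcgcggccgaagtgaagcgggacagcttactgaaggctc
Fam183b: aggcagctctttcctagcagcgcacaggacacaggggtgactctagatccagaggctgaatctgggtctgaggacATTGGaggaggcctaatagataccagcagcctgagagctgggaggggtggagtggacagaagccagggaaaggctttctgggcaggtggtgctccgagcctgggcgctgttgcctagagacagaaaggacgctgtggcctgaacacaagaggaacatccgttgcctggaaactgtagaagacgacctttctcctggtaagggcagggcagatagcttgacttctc
Thbs4: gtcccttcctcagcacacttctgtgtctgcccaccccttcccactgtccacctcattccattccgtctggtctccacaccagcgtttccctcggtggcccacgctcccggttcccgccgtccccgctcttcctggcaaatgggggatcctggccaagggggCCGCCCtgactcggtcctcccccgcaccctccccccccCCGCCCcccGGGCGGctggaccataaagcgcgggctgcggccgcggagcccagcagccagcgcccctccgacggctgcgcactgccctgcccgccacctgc

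The TATA box letters were in C3, at 14 bases after the listed start and so inside the transcript. In Ccdc113 they were at 29 bases before the listed start, but inside the gene as located. The CCAAT box letters were in Ccdc113 and Fam183b on the opposite strand, and Thbs4 held 3 GC box matches; no match overlapped another. Among 27025 RefSeq promoters of the same length, 14.2% held the TATA box letters, 37.9% the CCAAT box letters, 35.9% the GC box letters, 21% the CRE core and 7.24% the E-box. The 4 differed widely in CpG content, with 3 CpG in C3, 15 in Ccdc113, 6 in Fam183b and 24 in Thbs4, against a median of 7 over all promoters. Only 179 of 240 members (74.6%) had a listed promoter, under the 80% needed, so any check of promoter composition over the members is void for want of sequences.

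**Figure D3:**
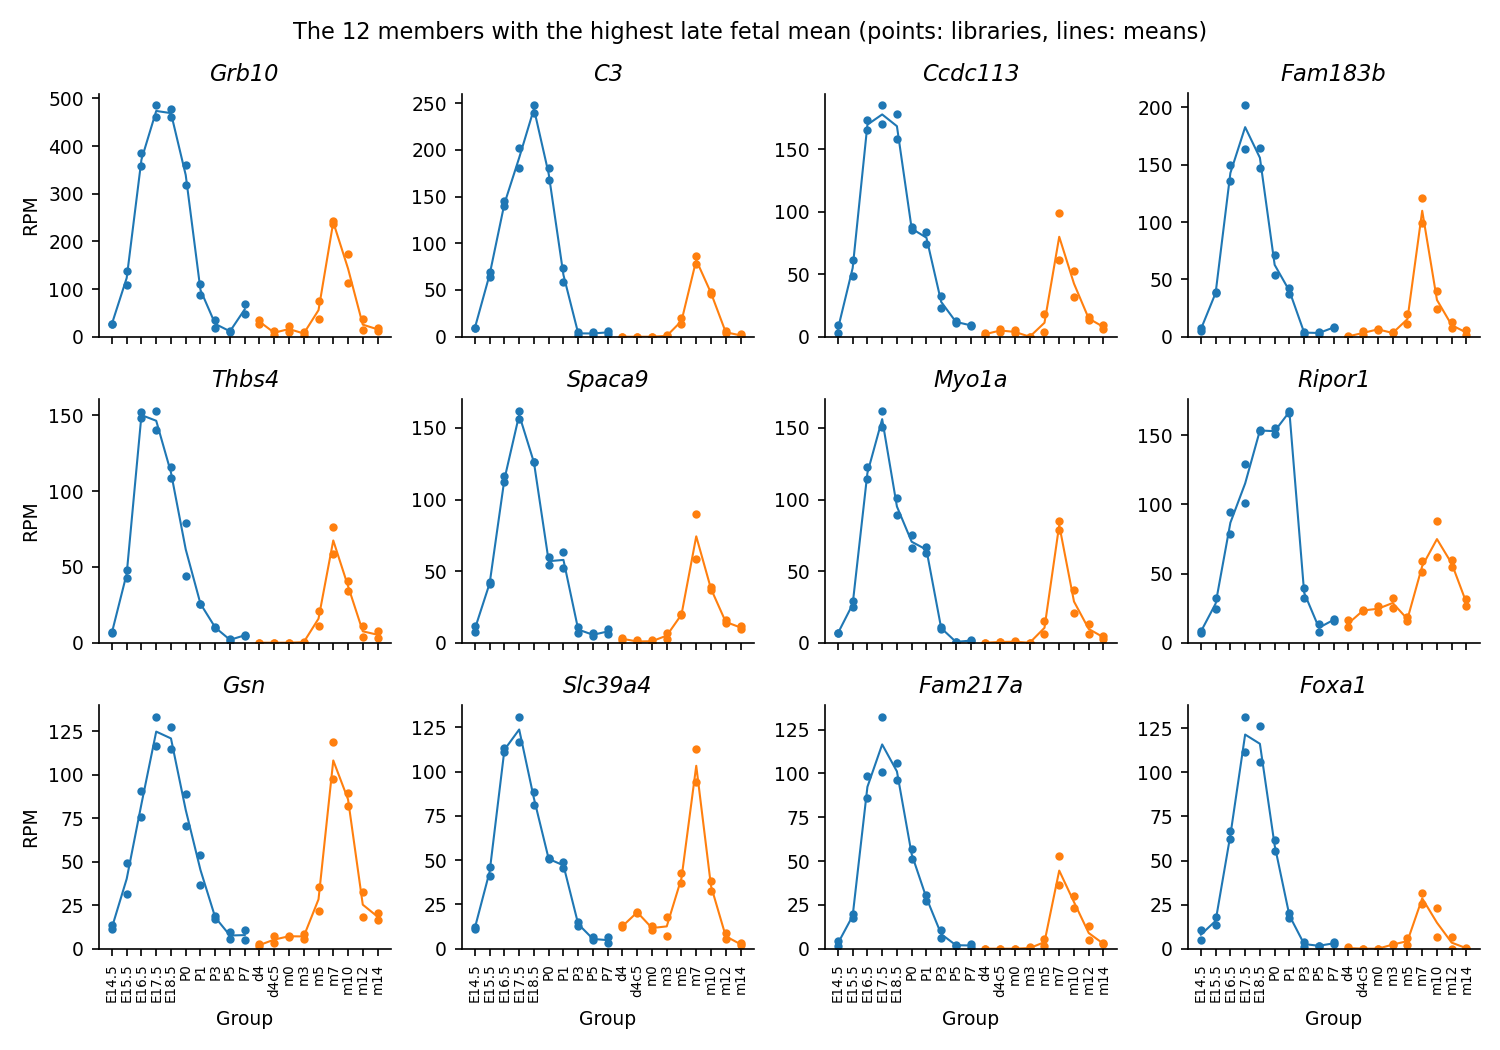
RPM (y axis) of the 12 members with the highest late fetal means in the 10 in vivo groups (blue) and the 9 culture groups (orange); points are libraries and lines join the means. In 11 of the 12 the highest culture mean is at m7, and in Ripor1 it is at m10.

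All 240 members had a location in RefSeq on GRCm38.p6, and 235 were protein coding. They lay on every autosome and on both sex chromosomes, with 24 on chromosome 11, 20 on chromosome 7 and 6 (2.50%) on the X, against 3.35% on the X for genes with a late fetal mean of at least 20 RPM. Their median gene length was 38.5 kb, against 28.1 kb for those genes and 23.2 kb for all genes tested. The median number of genes starting within 500 kb was 26 for members and 29 for both other sets. A few members were neighbours. Ikzf1, Ddc and Grb10 follow each other on chromosome 11 (11684962 to 12037428). The skeletal muscle myosin genes Myh2, Myh4 and Myh8 lie between 67171027 and 67308634 on the same chromosome. Vdr and Col2a1 are 67.3 kb apart on chromosome 15, and Col6a5 and Col6a4 are 27.9 kb apart on chromosome 9. A total of 112 members (46.7%) overlapped another gene on either strand, against 47.4% of genes tested, and the sources used here do not give the strand setting of the counting, so reads of such overlapping genes cannot be told apart. The members with close copies (Myh2, Myh4 and Myh8, Spag6 and Spag6l, Col6a4 and Col6a5, Krt25 and Krt27) are uncertain in how reads were split between copies.

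Sorted by what the genes are known for, 142 of the members fell into 9 role groups, which were drawn up after the values had been seen and so are a description. The remaining 98 members were left unassigned. The neuron, retina and synapse group was the largest, with 34 genes summing to 104 RPM at E14.5, 1253 RPM at E16.5, 1652 RPM at E18.5, 216 RPM at m5, 872 RPM at m7 and 500 RPM at m10. It held the glutamate receptor subunit Grik5, the calcium sensors of vesicle release Syt3, Syt7 and Syt17, the splicing factor Rbfox3, known as the neuronal marker NeuN, and the neuropeptide precursors Penk and Cartpt. Rbfox3 had 73.1 and 79.8 RPM at E17.5 and 102 and 109 RPM at m7. The lower m7 library lay within its late fetal range of 61.0 to 107 RPM, and the higher lay above it.

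The 19 extracellular matrix genes summed to 77.8 RPM at E14.5, 757 RPM at E16.5, 1210 RPM at E18.5 and 469 RPM at m7. Thbs4, a matrix glycoprotein of tendon and muscle, led them at E16.5 with 148 and 152 RPM, and Col2a1, the main collagen of cartilage, at E18.5 with 125 and 127 RPM. The m7 libraries of Col2a1 were far apart, at 91.1 and 35.8 RPM. The 15 keratin, junction and brush border genes summed to 37.9 RPM at E14.5, 865 RPM at E17.5 and 433 RPM at m7. They held Krt18 and Krt19 of simple epithelia, Krt25 and Krt27 of the hair root sheath, the desmosomal Dsp and the brush border proteins Vil1 and Myo1a. This group had the highest summed level of the 9 in the PGC-like cells, with 230 RPM at d4 and 287 RPM at d4c5, of which Dsp was 109 RPM at d4.

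The 13 cilia and flagella genes summed to 42.4 RPM at E14.5, 819 RPM at E17.5, 67.4 RPM at m5 and 381 RPM at m7. Fam183b, a gene of ciliated cells, had 164 and 202 RPM at E17.5, 10.7 and 20.1 RPM at m5, 98.9 and 121 RPM at m7 and 24.3 and 39.8 RPM at m10. The 12 liver and plasma protein genes summed to 40.7 RPM at E14.5, 781 RPM at E18.5 and 331 RPM at m7. The 13 muscle and contractile genes summed to 19.6 RPM at E14.5, 522 RPM at E18.5 and 186 RPM at m7, and Nrap, a protein of striated muscle fibres, had 112 and 120 RPM at E17.5 against 17.6 and 18.9 RPM at m7. The 15 blood and immune genes summed to 27.4 RPM at E14.5, 501 RPM at E17.5 and 258 RPM at m7, and the 3 endothelial genes Tie1, Ptprb and Adgrf5 to 8.002, 133 and 49.7 RPM at the same stages. The 18 transcription factors, among them Foxa1, Foxf2, Vdr, Nr2f1, Pax5, Ikzf1 and Mef2c, summed to 41.1 RPM at E14.5, 767 RPM at E18.5 and 255 RPM at m7. Every role group had its highest culture mean at m7. Each also had its highest in vivo mean between E16.5 and E18.5, which the choice of members favoured in advance.

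Genes that define these lineages were set beside the members, from a short list drawn up after the values had been seen. Among liver markers, Alb had at most 4.89 RPM, Apoa1 at most 5.56 RPM and Fgb at most 2.58 RPM in the late fetal group means, but Afp, the fetal albumin of liver and yolk sac, had 292 to 345 RPM there and 723 RPM at P1. Among skeletal muscle markers, Acta1 reached 2.1 RPM and Myod1 0.876 RPM over the late fetal days, and Ckm 15.1 RPM. Foxj1, the master regulator of multiciliated cells, was at 1.95 to 2.51 RPM, and the basal keratinocyte genes Krt5 and Krt14 were at no more than 8.19 RPM. Acan of cartilage had 22.2 to 31.7 RPM, while Matn1 and Comp of cartilage had at most 4.36 and 3.11 RPM. The neuronal genes Tubb3, Snap25 and Syt1 were each above 5 RPM on all 3 late fetal days and summed to 25.4 RPM at E16.5, 34.5 RPM at E17.5 and 43.5 RPM at E18.5, against 8.91 RPM at E14.5 and 5.62 RPM at P5. The endothelial genes Pecam1, Cdh5, Emcn and Esam summed to 42.3, 45.5 and 70.2 RPM on the late fetal days, against 17.2 RPM at E14.5 and 5.78 RPM at P5. Of these markers, most of liver and skeletal muscle and Foxj1 were near 0. The summed markers of each lineage were still higher on every late fetal day than at E14.5 and P5, as the members were. Skeletal muscle genes summed to 1.49 RPM at E14.5, 10.5 to 19.5 RPM on the late fetal days and 1.11 RPM at P5. In the same order, basal keratinocyte genes summed to 0, 2.95 to 12.8 and 0 RPM, and cartilage genes to 7.36, 25.9 to 37.2 and 5.75 RPM. B cell genes summed to 3.05, 13.0 to 15.7 and 1.16 RPM. Outside these days the markers did not all follow the members. In vivo, liver and neuronal genes were highest at P1 (734 and 48.8 RPM) and endothelial genes at P0 (80.1 RPM). From m5 to m7 neuronal genes fell from 24.6 to 15.8 RPM and endothelial genes from 22.6 to 16.9 RPM. The summed markers of the other lineages rose in that step. The part of such cells in the members' levels was not tested.

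Markers of other cells of the testis were also higher on the days when the members were high. Amh of Sertoli cells and Insl3 of Leydig cells were at 0 in every library, although other genes of both cell types were detected. These zeros therefore do not show that such cells were absent. A list of 14 Sertoli genes summed to 97.8 RPM at E14.5, 255 to 332 RPM in the late fetal means and 56.7 RPM at P5. A list of 12 stromal genes, which includes the member Acta2, summed to 96.6 RPM at E14.5, 362 to 536 RPM in the late fetal means and 140 RPM at P5. A list of 9 endothelial genes, which includes the member Tie1, summed to 54.3, 184 to 247 and 45.4 RPM in the same order, 14 macrophage and blood genes to 106, 130 to 296 and 44.1 RPM, and 5 Leydig genes to 31.3, 50.7 to 72.8 and 4.35 RPM. In bulk RNA, fewer cells of a type and less RNA per cell cannot be told apart. The part of these cells in the members' levels was not tested.

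In culture the same lists gave, for m5, m7 and m10, 488, 645 and 621 RPM for Sertoli genes, 190, 537 and 863 RPM for stromal genes, 63.4, 139 and 107 RPM for endothelial genes, and 9.07, 133 and 760 RPM for macrophage and blood genes. The 2 m10 libraries stood apart in the last list, with 1386 RPM in replicate 1 and 134 RPM in replicate 2, and m14 had 770 and 840 RPM. The summed level of the members was 2998 RPM in m10 replicate 1 and 3357 RPM in m10 replicate 2. Lgals3, a galectin of macrophages and epithelia, was apart in the same direction as that list, with 144 RPM in m10 replicate 1 and 11.1 RPM in m10 replicate 2. The part of macrophages in Lgals3 and in the summed level of the members was not tested.

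The step from m5 to m7 was the point in culture at which the members rose most widely. In edgeR's quasi-likelihood test over 16008 genes, with a gene called where its Benjamini-Hochberg adjusted p was below 0.05 and it changed at least 2-fold (1 on the log2 scale), 158 of 240 members were higher at m7 than at m5 and none lower. Over all genes tested, 6.86% were called higher and 3.75% lower. The median member was at 3.43 RPM at m5, and 77 of 240 members reached 5 RPM there. A fall from so low a level could seldom be called, so the lack of lower members says little. The median log2 fold change was 2.05 for the members and 0.08 for all genes tested, and all 240 fitted values were positive. At an unadjusted p below 0.05, 208 members differed, as did 4760 of all genes tested, and DESeq2 also called none lower. The called members included 23 of 34 neuronal, 15 of 19 matrix, 12 of 15 keratin and junction, 8 of 13 cilia, 9 of 13 muscle, 8 of 12 liver, 7 of 15 blood and 9 of 18 transcription factor genes. In the same step 5 of 12 stromal and 4 of 14 macrophage and blood genes were called higher and none lower, 3 of 9 endothelial genes were higher and 1 lower, and no Sertoli or Leydig gene was called. The part of these cells in the result was not tested. The number of members called higher was 89 without replicate 1 of m5 and 125 at most without any 1 library.

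Kcnma1, the large-conductance calcium-activated potassium channel, had 0.60 and 1.43 RPM at m5 and 18.2 and 25.7 RPM at m7. Its log2 fold change was 4.20 (SE 0.68, adjusted p 1.82e-05). Lgals3 had 2.38 and 2.39 RPM at m5 and 39.1 and 50.6 RPM at m7, a log2 fold change of 4.08 (SE 0.93, adjusted p 0.00278). Tie1, an endothelial receptor tyrosine kinase, had 0.96 and 2.38 RPM at m5 and 22.3 and 30.6 RPM at m7, with a log2 fold change of 3.88 (SE 0.63, adjusted p 2.42e-05). Gpr176, an orphan receptor, had 1.79 and 5.74 RPM at m5 and 49.5 and 53.3 RPM at m7, with a log2 fold change of 3.59 (SE 0.61, adjusted p 2.95e-05). In each of the 4 genes the groups did not overlap, and in Gpr176 the m7 libraries were above the late fetal range of 16.7 to 46.0 RPM.

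Fewer members rose one step earlier. From m3 to m5, 57 were called higher and 6 lower, against 11.4% and 4.22% of all genes tested. The median log2 fold change was 1.72 for the members and 0.17 for all genes. A total of 61 members had no read in either m3 library, and with folds against 0 reads set at their lower bound, from a floor of 3 reads over the group, the median of the 222 members that allow one was 1.23. Ankrd29, an ankyrin repeat protein, had 0.71 and 1.85 RPM at m3 and 19.6 and 26.8 RPM at m5, with a log2 fold change of 3.92 (SE 0.59, adjusted p 5.95e-07). Rbfox3 rose from 0.46 and 2.85 RPM to 19.6 and 24.4 RPM, a log2 fold change of 3.804 (SE 0.91, adjusted p 0.00195). Grb10 rose by 2.85 (SE 0.47, adjusted p 1.52e-05) and Gsn, the actin-severing protein gelsolin, by 1.95 (SE 0.47, adjusted p 0.00161) on the log2 scale. Rundc3a, an effector of Rap2 in neurons, went the other way, from 21.3 and 27.8 RPM at m3 to 7.14 and 12.4 RPM at m5, a log2 fold change of -1.41 (SE 0.38, adjusted p 0.00429). The calls of Rbfox3 and Gsn were lost without replicate 2 of m3, that of Gsn also without replicate 2 of m5 and that of Rundc3a without replicate 1 of m5. In the same step 6 of 12 stromal genes were called higher, as were 2 of 9 endothelial genes with 1 lower, and their part in the result was not tested. The number of members called higher was 23 without replicate 2 of m3, 29 without replicate 2 of m5 and 33 without replicate 1 of m3.

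After m7 members fell. From m7 to m10, 61 were called lower and none higher, against 3.12% and 4.07% of all genes tested, with a median log2 fold change of -1.01 for the members and -0.04 for all genes. At an unadjusted p below 0.05 edgeR gave 112 members in either direction and 4253 of all genes tested, and DESeq2 called none higher. Of the markers of other cells, 2 of 14 macrophage and blood genes were called higher at m10 and 1 lower. Also lower were 1 of 9 endothelial genes (the member Tie1), 1 of 12 tested Sertoli genes and 1 of 4 tested Leydig genes. No stromal gene was called. The part of these cells in the result was not tested. Gpr176 went from 49.5 and 53.3 RPM at m7 to 3.32 and 13.7 RPM at m10, a log2 fold change of -2.74 (SE 0.56, adjusted p 0.000447). Col24a1, a fibrillar collagen, went from 14.2 and 32.5 RPM to 2.21 and 7.83 RPM, and Krt25 from 27.7 and 28.6 RPM to 3.32 and 9.14 RPM, with log2 fold changes of -2.37 (SE 0.58, adjusted p 0.00323) and -2.31 (SE 0.50, adjusted p 0.0010). The number called lower was 21 without replicate 1 of m10, in which the macrophage list was high, and 28 without replicate 1 of m7. Without m10 replicate 1 the calls of Gpr176, Col24a1 and Krt25 were lost, and that of Col24a1 also without m7 replicate 1.

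From m10 to m14, 135 members were called lower and none higher, against 8.98% and 2.79% of all genes tested. The median log2 fold change was -2.29, against -0.14 for all genes, and -2.06 over 230 members with folds against 0 reads at their bound. At an unadjusted p below 0.05 edgeR gave 180 members in either direction and 5197 of all genes tested, and DESeq2 called none higher. C3 fell from 45.3 and 48.3 RPM to 2.48 and 0.52 RPM, a log2 fold change of -4.83 (SE 0.49, adjusted p 2.1e-10). Slc39a4, an intestinal zinc importer, fell from 32.6 and 38.1 RPM to 1.99 and 3.10 RPM (log2 fold change -3.71, SE 0.44, adjusted p 1.2e-08). Krt18 fell from 44.4 and 64.1 RPM to 3.10 and 4.96 RPM and Rbfox3 from 33.9 and 34.8 RPM to 2.07 and 3.47 RPM, by 3.67 and 3.53 on the log2 scale (edgeR adjusted p 1.09e-05 and 0.000813). In the same step 5 of 9 endothelial and 3 of 12 stromal genes were called lower and none higher, and the part of these cells in the result was not tested. The number of members called lower was 77 without replicate 2 of m14 and 84 without replicate 1 of m14.

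**Figure D4:**
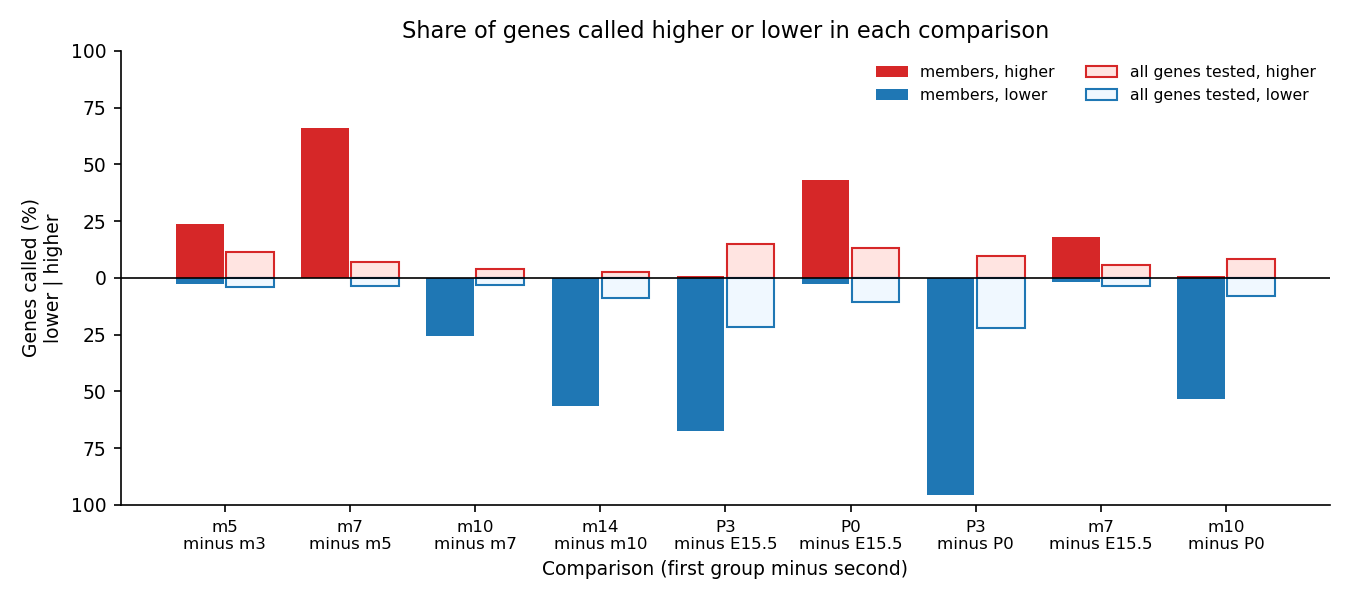
Percent of the 240 members (dark bars) and of all 16008 genes tested (pale bars) called higher (above 0) or lower (below 0) in the first group of each comparison. Members were called higher most often for m7 minus m5 (65.8%) and lower most often for P3 minus P0 (95.8%), against 6.86% and 22.2% of all genes tested.

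In vivo, the tests could use E15.5, P0 and P3, which lie next to the days that chose the members. The choice required a rise after E14.5 and a fall before P5, so changes in these directions were favoured in advance. The shares of all genes are a background without that requirement. From E15.5 to P0, 103 members were called higher and 7 lower, against 13.2% and 10.7% of all genes tested, with a median log2 fold change of 1.03 (0.06 for all genes). The scaling of libraries matters here, since the usual correction for composition (TMM) placed the median of all genes 0.43 below that of the deposited RPM scaling on the log2 scale. St8sia3, a sialyltransferase of the brain, rose from 1.22 and 3.29 RPM to 71.7 and 83.2 RPM (log2 fold change 4.72, SE 0.56, adjusted p 1.21e-09). Cartpt, a neuropeptide precursor, rose from 1.23 and 2.44 RPM to 41.1 and 48.6 RPM, and Col9a1 of cartilage from 3.66 and 4.52 RPM to 61.3 and 62.6 RPM, by 4.09 and 3.48 on the log2 scale (edgeR adjusted p 3.94e-08 and 5.83e-08). Dach1, a transcription factor, rose from 0.82 and 2.74 RPM to 20.4 and 30.5 RPM. In the same comparison 3 of 12 stromal genes, including the member Acta2, and 3 of 9 endothelial genes, including the member Tie1, were called higher and none lower; their part in the result was not tested.

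The members called lower at P0 than at E15.5 included Slc51a, a subunit of a bile acid transporter, with 23.4 and 25.3 RPM at E15.5 and 1.82 and 5.35 RPM at P0. Its log2 fold change was -3.10 (SE 0.57, adjusted p 2.78e-05). Dmkn, a secreted protein of skin, went from 24.3 and 25.9 RPM to 6.55 and 10.5 RPM, and the adhesion molecule Chl1 from 23.0 and 25.3 RPM to 7.80 and 10.9 RPM. Their log2 fold changes were -1.96 and -1.82 (edgeR adjusted p 0.000287 and 0.00597). The call of Chl1 was lost without replicate 2 of either group. These 3 genes had their highest in vivo means at E16.5 or E17.5, and their E18.5 means were below those of E15.5.

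From P0 to P3, 230 of 240 members were called lower and none higher, against 22.2% and 9.45% of all genes tested, and the median log2 fold change was -3.00 (-0.13 for all genes). All 240 fitted values were negative, 233 of them at an unadjusted p below 0.05, as were 8489 of all genes tested in either direction, and DESeq2 called none higher. Col9a1 had 447 reads over the P0 libraries and none over those of P3, which makes it at least 166-fold lower (floor of 3 reads over the group). Scgn, a calcium-binding protein of neuroendocrine cells, was at least 58.7-fold lower by the same bound. In the same step 8 of 12 stromal, 5 of 9 endothelial, 4 of 14 macrophage and blood and 3 of 12 Sertoli genes were called lower and 1 stromal gene higher, and their part in the result was not tested. Cdhr1, a cadherin of photoreceptors, had 210 reads at P0 and 1 at P3, a ratio of 234 with a 95% counting interval of 41.6 to 9.29e+03. 

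Between E15.5 and P3, on either side of the peak, 162 members were lower at P3 and 2 higher, against 21.8% and 14.7% of all genes tested, with a median log2 fold change of -1.97 (-0.17 for all genes). Slc51a and Chl1 had no read at P3 and were at least 65.9-fold and 65.4-fold lower than at E15.5, respectively. Clca1, a secreted protein of goblet cells, had 118 reads at E15.5 and 3 at P3. Dmkn fell by 5.45 on the log2 scale (SE 0.60, edgeR adjusted p 8.83e-11), from 24.3 and 25.9 RPM to 0.50 and 0.74 RPM. Tm4sf5, a tetraspanin-like membrane protein, was higher at P3, with 11.9 and 13.1 RPM at E15.5 and 35.7 and 23.3 RPM at P3 (log2 fold change 1.01, SE 0.36, adjusted p 0.0165), a call that was lost without P3 replicate 1 (adjusted p 0.179), without E15.5 replicate 1 (adjusted p 0.0559) and under most other scalings and tests. The comparisons of this and the preceding paragraphs share libraries, so their values stand side by side and are not independent.

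How far culture reached the late fetal level differed between members. The m7 mean was 48.8% of the late fetal mean for the median member (quartiles 33.5% and 64.1%), against 103% for all 7669 genes with a late fetal mean of at least 20 RPM. The members were chosen for high late fetal levels, which by itself favours a lower percent than that of all genes in other groups. At P0 in vivo the percent was 65.6% for the median member, against 114% for the 7669 genes. At m5 the percent was 9.52% and at m10 25.3% for the median member. At m7, 114 members reached at least 50% of their late fetal mean, 7 exceeded it and 8 stayed under 10%. The 7, named here after their values were seen, were Gpr176 (176%), Lgals3 (143%), Rbfox3 (135%), Slc6a17 (125%), BC051142 (111%), Fam189a2 (109%) and Rims4 (105%). Across the 240 members the m7 mean and the late fetal mean had a Spearman correlation of 0.72, a description across genes that share the same libraries and 3′ assay.

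**Figure D5:**
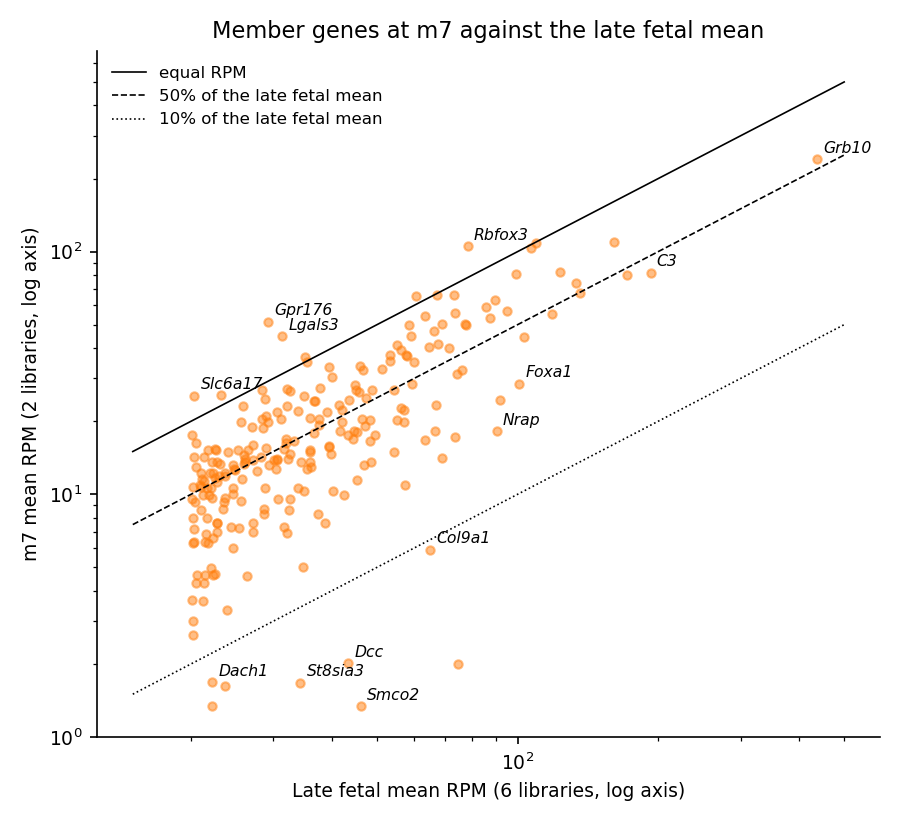
Mean RPM at m7 (y axis, log scale) against the late fetal mean RPM (x axis, log scale) for the 240 members, with lines at equal level, 50% and 10%. Most members lie between the lines of 10% and 100%, with 7 above the upper and 8 below the lower line.

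A total of 9 members stayed under 5 RPM in every library from m0 to m14. The 4 with the highest late fetal means among them were Smco2, Dcc, St8sia3 and Soga3. Dcc, a receptor for the axon guidance cue netrin, had 51.4 to 57.8 RPM over the E17.5 and E18.5 libraries and a mean of 2.01 RPM at m7. It had 257 reads at P0 and none at m10, so it was at least 39.6-fold lower at m10. St8sia3 had a mean of 59.8 RPM at E18.5 and 1.68 RPM at m7. Smco2, a membrane protein, had 53.5 RPM at E16.5, 70.8 RPM at E17.5 and 14.1 RPM at E18.5 on average, against 1.34 RPM at m7, and Soga3 34.0 RPM at E18.5 against 3.34 RPM at m7.

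Strain, reporters and culture differ together between the culture and in vivo groups, so their parts cannot be told apart. Set against E15.5 in vivo, m7 had 43 members higher and 4 lower, against 5.73% and 3.49% of all genes tested, and the median log2 fold change was 0.58 (0.01 for all genes). Acta2, smooth muscle actin, had 3.70 and 4.57 RPM at E15.5 and 30.4 and 36.5 RPM at m7 (log2 fold change 2.72, SE 0.60, adjusted p 0.00119). Dtx4, a ubiquitin ligase of the Deltex family, rose by 2.51 (SE 0.51, edgeR adjusted p 0.000259), Gpr176 by 2.31 (SE 0.52, edgeR adjusted p 0.00114) and Lgals3 by 2.62 (SE 0.75, edgeR adjusted p 0.0145) on the log2 scale. Nrap was lower at m7, with 27.1 and 34.5 RPM at E15.5 and 17.6 and 18.9 RPM at m7 (log2 fold change -1.03, SE 0.38, adjusted p 0.0498), a call at the edge of both thresholds. The number called higher was 68 under the deposited RPM scaling and 23 to 27 without any 1 of the 4 libraries. Markers of other cells moved with this comparison, with 6 of 12 tested Sertoli genes and 5 of 12 stromal genes called higher at m7 and none lower, and with 4 of 14 macrophage and blood genes higher (C1qa, C1qc, Lyz1 and Tyrobp) and 2 lower. Their part in the result was not tested.

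Set against P0, m10 had 128 members lower and 2 higher, against 7.93% and 8.23% of all genes tested, and the median log2 fold change was -1.36 (-0.06 for all genes). The members lower at m10 included Col9a1, with 61.3 and 62.6 RPM at P0 and 3.87 and 1.96 RPM at m10 (log2 fold change -4.29, SE 0.53, adjusted p 6.87e-08), and St8sia3, with 71.7 and 83.2 RPM against 2.21 and 2.61 RPM (log2 fold change -4.92, SE 0.60, adjusted p 1.92e-08). Dach1 had 193 reads at P0 and 2 at m10, a ratio of 44.6 with a counting interval of 12.2 to 371. Neat1, the long noncoding RNA of paraspeckles, was higher at m10, with 10.9 and 13.5 RPM at P0 and 23.8 and 29.4 RPM at m10 (log2 fold change 1.19, SE 0.38, adjusted p 0.0143), a call that was lost without either m10 replicate or without P0 replicate 2. In this comparison 8 of 14 macrophage and blood, 6 of 12 stromal and 6 of 12 Sertoli genes were called higher at m10, while 4 macrophage and blood and 4 of 9 endothelial genes were lower; their part was not tested. The number of members called lower was 49 without m10 replicate 1 and 79 without P0 replicate 2.

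Without a model, the libraries of the groups can be compared gene by gene. From m3 to m5 both m5 libraries were above both m3 libraries in 140 members and below in 16, against 35.1% and 14.9% of all genes tested. From m5 to m7 they were above in 223 and below in 0 (34.3% and 17.4% of all genes), from m7 to m10 above in 10 and below in 158 (26.9% and 20.9%), and from m10 to m14 above in 2 and below in 210 (19.0% and 34.5%). In vivo, P0 lay above E15.5 in 203 members and below in 13 (55.0% and 19.9%), P3 above P0 in 0 and below in 238 (26.1% and 50.1%), and P3 above E15.5 in 9 and below in 192 (39.9% and 36.0%). Between the series, m7 lay above E15.5 in 166 members and below in 17 (40.7% of all genes above and 2718 genes below), and m10 above P0 in 5 and below in 210 (26.9% and 36.8%). The share of members was above the share of all genes in the main direction of each comparison. In vivo, the choice of members favoured a rise before and a fall after the late fetal days.

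Pathways known for this stage were counted in the same comparisons. Of 24 piRNA and de novo methylation genes, 23 were tested; 16 rose from m3 to m5, 2 rose from m5 to m7 (Kdm1b and Tdrd9), 4 fell from m7 to m10 and 3 fell from m10 to m14. None of them is a member. The choice of members left out Piwil4, Spocd1 and Dnmt3l by name, so no conclusion is drawn from this. Kdm1b, a histone demethylase needed for methylation of imprints in oocytes, had 167 and 351 RPM at m5, 776 and 1032 RPM at m7 and 170 and 364 RPM at m10, with log2 fold changes of 1.69 (SE 0.24, adjusted p 5.14e-06) and -1.88 (SE 0.25, adjusted p 6.87e-07). Tdrd9, a helicase of the piRNA pathway, rose by 1.17 (SE 0.24, edgeR adjusted p 0.000884) and then fell by 1.24 (SE 0.25, edgeR adjusted p 0.000444) on the log2 scale in the same steps. Of 14 proliferation genes, 8 fell from m3 to m5, 8 fell from m5 to m7, 5 rose from m7 to m10 and 10 rose from m10 to m14, and all 14 rose from P0 to P3. Of 16 genes of undifferentiated spermatogonia, 10 rose from m7 to m10 and none fell; among them Gfra1, a receptor for GDNF, had 4.73 and 9.11 RPM at m7 and 77.0 and 85.1 RPM at m10 (log2 fold change 3.43, SE 0.30, adjusted p 1.19e-12).

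In the cultured lines most members were scarce. The mean was under 5 RPM in all 12 line groups for 162 members, and 14 reached 20 RPM in at least 1 line. The highest of these, named after their values were seen, was A2m, a plasma protease inhibitor, with group means of 12.8 to 81.9 RPM, the highest in GSCLC_S1. Ripor1 had 30.1 to 62.8 RPM and Prkcb, a protein kinase C of lymphocytes, 11.8 to 44.4 RPM. In d4 to m3, 177 members were under 5 RPM in all 4 groups, and 17 reached 20 RPM in at least 1; the highest were Rgcc, a regulator of the cell cycle, with 115 RPM at d4c5, and Dsp with 109 RPM at d4.

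Just inside the level threshold were Trps1 (20.1 RPM), Colca2 (20.1 RPM) and Fgg (20.1 RPM), and just outside were Zfp423 (19.9 RPM), Stat4 (19.8 RPM) and Adam33 (19.7 RPM). Just inside the fold threshold, by the smaller of the 2 ratios, were Dnah12 (8.04), Col27a1 (8.07) and Igsf1 (8.07), and just outside were Itih5 (7.999), Bco1 (7.99) and Slc6a4 (7.99).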

How the data were processed

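Male germ cells and their cultured counterparts were measured by 3′ RNA-seq in 62 libraries from 1 ng of total RNA each. Per the submitters' processing notes, the tools were HTSeq 0.9.1, Bowtie2 2.2.7, TopHat2 2.0.11 and cutadapt 1.9.1, with the build GRCm38.p6; the sources used here do not give the annotation, the strand setting or other parameters. The deposited files give, per the file headers, a read count and an RPM value for each gene. The deposited RPM, entered here as a score because spike-in, mitochondrial and transgene rows are listed on the same scale, equalled each count divided by the nuclear total (largest relative difference 4.9e-06 at 10 RPM or more). Of 36038 rows, 35914 nuclear genes were used; 13 mitochondrial, 96 spike-in, 5 transgene and 10 blank rows were left out.

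The 16008 genes that reached 5 RPM in 2 or more libraries were fitted with edgeR 4.0.16 in R 4.3.3 (TMM scaling, robust quasi-likelihood, 1 coefficient for each of 31 groups), which was checked on simulated data. Standard errors are the log2 fold change over the square root of its F statistic. Calls needed a Benjamini-Hochberg adjusted p below 0.05 over all genes and a change of 1 or more on the log2 scale. DESeq2 1.42.0, limma 3.58.1, other scalings, filters, thresholds and left-out libraries were the alternatives. A group with no read was bounded with a floor of 3 reads over the group; counting intervals are exact, at 95%, and like the floor cover counting error only. Libraries within a group differed by more than counting noise (chi-squared over degrees of freedom 1.53 to 16.8). This value was 14.5 at m3, 10.5 at m5, 6.15 at m7, 10.6 at m10 and 4.58 at m14. It was 2.78 at E15.5, 3.17 at P0 and 4.85 at P3. The spread estimated over all groups may thus be too small for some culture groups, which would make calls there too easy.

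The members, lists, role groups and tests were chosen with earlier results of these data known. The text names the 12 members with the highest late fetal means, up to 4 called members per comparison and direction with the largest change, at least 20 RPM in the higher group and no overlap of libraries, the 4 highest members under 5 RPM from m0 to m14, those nearest the thresholds and those in a list; others are stated as chosen after their values were seen or illustrate a role group. Genes known only by a number were counted, not named. Some genes that this choice would name are not reported here.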

Additional observations from a re-analysis of the deposited data

How the results depend on the processing

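The comparisons were repeated with other library scalings, filters and tests, with a replicate block and without each library. Under edgeR with RLE size factors, no filter, a filter of 20 RPM, the replicate block, without the cultured lines or with DESeq2, the count of members called in the main direction stayed within 1.5 times in all 9 comparisons. The members higher at m5 than at m3 numbered 97, 92 and 27 under limma with pseudocounts of 0.5, 1 and 5, against 57; the cause was not tested. Those lower at P3 than at E15.5 numbered 91 under limma with a pseudocount of 5, against 162, and those higher at m7 than at E15.5 numbered 68 under the deposited RPM scaling, against 43. Leaving out 1 library, with the lone library assumed to vary like the other groups, gave 23 to 53 members for m5 against m3, 89 to 125 for m7 against m5, 21 to 56 for m10 against m7, 77 to 112 for m14 against m10, 126 to 158 for P3 against E15.5, 71 to 86 for P0 against E15.5, 206 to 227 for P3 against P0, 23 to 27 for m7 against E15.5 and 49 to 116 for m10 against P0. No fold change of a gene named for a comparison reversed; without 1 library 152 calls stayed and 24 were lost, and under other settings 420 stayed and 20 were lost. The membership rule gave 331 genes at a 6-fold threshold, 157 at 12-fold, 140 where every late fetal library had to reach 20 RPM, and 222 to 259 without 1 of the 12 libraries, and 187 with TMM-scaled CPM. Groups share replicate numbers, but the labels do not say what a number marks, and with only 2 pairs the numbers do not establish pairing. The same-numbered deviations correlated at 0.364 (m5 and m3), 0.235 (m7 and m5), 0.238 (m10 and m7), 0.0642 (m14 and m10) and near 0 elsewhere. With the replicate block the counts in the main direction were 60 for m5 against m3, 156 for m7 against m5, 60 for m10 against m7, 136 for m14 against m10, 162 for P3 against E15.5, 103 for P0 against E15.5, 230 for P3 against P0, 43 for m7 against E15.5 and 129 for m10 against P0. Members with no read in a group limit what depth can show at m3 and m14.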
